A study of Mus musculus with 9 samples.

Results

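Early astrocyte genes were followed in the cortex of mouse embryos that carry mutant copies of Cyfip2, at the age when the cortex begins to make glia. They are 10 genes chosen by symbol, Aldh1l1, Gfap, Aqp4, S100b, Apoe, Gja1, Slc1a2, Id3, Clu and Nfia, whose symbols were mapped to Ensembl gene IDs. All 10 were among the 18820 genes of the deposited table, and all 10 averaged 10 or more, the filter that left 15069 genes to test. RNA came from C57BL/6J cortex at embryonic day 18.5, with 3 libraries from Cyfip2 knockouts (KO), 3 from Cyfip2 heterozygotes (Het) and 3 from wild types (WT). No treatment is named. The labels do not describe the mutant allele and are silent on whether each library is another embryo. The p-values thus reflect library-to-library spread, which may be partly technical. The Y-linked gene Ddx3y was at 0 in some KO and Het libraries and not in others, so neither set of 3 came from a single embryo. Values are normalized counts, that is gene counts scaled to make the libraries comparable.

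Astrocytes support neurons by clearing glutamate and potassium, moving water and feeding lipids and metabolites to them. In the cortex they arise late in gestation from radial glia, the stem cells that first make neurons. Nuclear factor I proteins, Notch signalling, and cytokines that act through STAT3 switch radial glia towards astrocytes, and bone morphogenetic proteins act through SMAD and ID proteins in the same step. Many astrocyte genes are already active in radial glia, while Gfap, Aqp4 and S100b climb mostly after birth. Several are also known from other cells: Gja1 from meningeal fibroblasts, Apoe from macrophages, S100b from ensheathing glia of the olfactory nerve, and Clu from choroid plexus and ependyma.

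Promoters of Gfap, S100b and Gja1 are shown because Gfap is the textbook target of STAT3 and nuclear factor I, S100b separated the libraries by their olfactory bulb RNA, and Gja1 varied most between libraries. Each runs from 250 bases before to 50 bases after the gene start in RefSeq (GRCm38.p6). Capitals mark TTCNNNGAA (the STAT palindrome), TGGGAA (a core that Notch effectors of the RBPJ type bind) and TGGCA (the short form of the nuclear factor I site), on either strand. In Gfap, TTCCCA is TGGGAA read on the other strand and TTCCAGGAA is the STAT palindrome. In S100b, TTCCCA is again the Notch core and TGGCA the short nuclear factor I site. Gja1 holds none of these letters in this window.
Gfap, chr11:102897151-102897450, minus strand: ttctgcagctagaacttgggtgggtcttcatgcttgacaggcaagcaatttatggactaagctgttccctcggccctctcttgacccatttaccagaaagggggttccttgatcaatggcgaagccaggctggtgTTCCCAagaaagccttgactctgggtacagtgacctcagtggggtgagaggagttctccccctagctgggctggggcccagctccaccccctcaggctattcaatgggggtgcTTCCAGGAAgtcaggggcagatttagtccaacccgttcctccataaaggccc
S100b, chr10:76253586-76253885, plus strand: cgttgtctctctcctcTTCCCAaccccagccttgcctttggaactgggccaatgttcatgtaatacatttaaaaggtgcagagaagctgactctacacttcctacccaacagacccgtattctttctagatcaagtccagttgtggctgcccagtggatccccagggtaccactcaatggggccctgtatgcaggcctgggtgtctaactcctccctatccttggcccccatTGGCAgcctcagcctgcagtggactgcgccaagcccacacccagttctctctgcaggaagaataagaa
Gja1, chr10:56377050-56377349, plus strand: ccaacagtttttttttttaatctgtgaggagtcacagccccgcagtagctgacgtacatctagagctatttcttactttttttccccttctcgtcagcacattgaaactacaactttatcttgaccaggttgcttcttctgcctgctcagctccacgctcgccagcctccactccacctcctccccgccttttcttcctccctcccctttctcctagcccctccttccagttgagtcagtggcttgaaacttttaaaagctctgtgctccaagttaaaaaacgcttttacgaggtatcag
The table of promoters matched 8 of the 10 genes; Aqp4 and Clu were not matched. These 8 genes have 10 promoters in it, 3 of them of Apoe. TTCNNNGAA was found in 1 of the 10 promoters, that of Gfap, and in 8.30% of all 32851 promoters of this length. TGGGAA was found in 4 of 10 (1 each of Aldh1l1, Apoe, Gfap and S100b), against 25.6% of all promoters. TGGCA was found in 6 of 10 (those of Aldh1l1, Nfia and S100b and all 3 of Apoe), against 48.9% of all promoters. The full nuclear factor I palindrome (TTGGC, any 5 bases, then GCCAA) was in 0 of 10, against 0.0365% of all promoters, and it holds the short form only where an A follows TTGGC or a T precedes GCCAA. A match describes letters and is not a site of binding.

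The libraries differed in tissue in ways that touch several of these genes. Mitral cells of the olfactory bulb express Cdhr1, which was at 3237 in KO replicate 1, 2138 in KO replicate 2, 3436 in Het replicate 1 and 2229.7 in WT replicate 3, against 21.8 to 53.1 in the other 5 libraries. These 4 are called the libraries with olfactory bulb RNA. Of the other genes of a 10-gene olfactory bulb list, Tbx21, Trh, Barhl2, Th and Ms4a15 split the libraries the same way without overlap. Doc2g, Shisa3, Nmb and Npr1 overlapped, with Doc2g at 610 to 682 in the 4 libraries against 646 to 745 in the others. In Het replicate 3 the 15 genes of a meningeal list summed to 734, against 14959.5 to 35394 in the other 8 libraries. No gene of that list was at 0 in any library. Ttr, made by choroid plexus, was at 11029 in Het replicate 2 and 3156 in WT replicate 2, against 20.7 to 624 elsewhere. The Y-linked gene Ddx3y was listed at 0 in KO replicates 1 and 2 and in Het replicate 1, against 1394 to 1674 in the other 6 libraries. Depth was not listed. It was estimated from the step between low values, taken as 1 read, at about 29.5 M to 54.4 M reads (M, mega). Cyfip2 itself was at 7900, 7522 and 8255 in KO libraries, 8969, 9779 and 9882 in Het libraries, and 10169, 10344.5 and 11174 in WT libraries, so the 3 genotypes did not overlap. The value covers all of Cyfip2, and whether a deleted stretch was absent from the KO RNA cannot be read from it.

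Compared per kilobase of exon, the 10 genes spanned a wide range in WT cortex. Apoe, the main lipid carrier of the brain, was highest, at 1526 ± 118 normalized counts per kb (SD, n = 3). Nfia (461 ± 32.4), Id3 (442 ± 67.1), Clu (349.8 ± 91.7), Aldh1l1 (332 ± 17.5) and Gja1 (323 ± 20.2) followed, and the WT ranges of neighbours in this order overlapped. Slc1a2 lay below them at 249 ± 31.6 and Gfap below Slc1a2 at 84.7 ± 36.0, each with a WT range that did not overlap its neighbours. Aqp4 at 19.4 ± 4.87 and S100b at 14.6 ± 8.06 per kb were lowest and overlapped each other. By the same estimate of depth, S100b rested on about 8 to 35 reads a library.

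**Figure D1:**
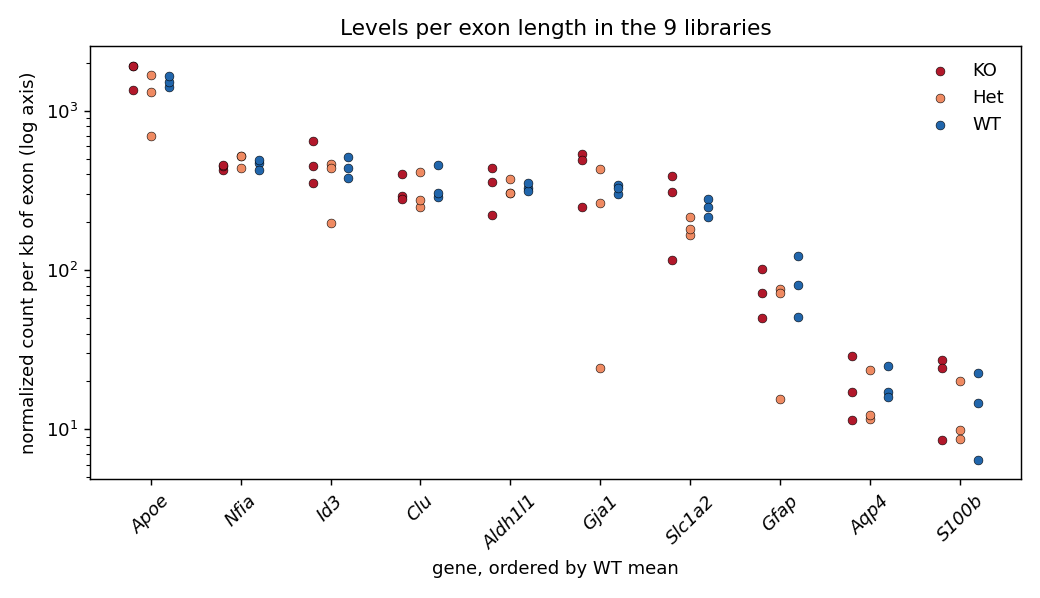
Normalized counts per kb of exon (log axis) of the 10 genes, ordered by their WT mean, with 1 point for each of the 9 libraries coloured by genotype (KO, Het, WT). Apoe averaged 1526 per kb in WT and S100b 14.6, and the 3 genotypes lie over each other for most genes, with 1 Het library of Gja1 far below.

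Among the regulators, Nfia was steady and Id3 was not. Nfia encodes a nuclear factor I transcription factor that starts astrocyte formation. Its normalized counts were 4622.5, 4925 and 5016 in KO libraries, 4782, 5645 and 5679 in Het libraries, and 5091, 5333 and 4638 in WT libraries. The genotypes overlapped, and the highest library was only 1.23 times the lowest. In KO against WT, Nfia had a log2 fold change of -0.05 ± 0.08 (SE). Its 95% interval, -0.23 to 0.14, was the narrowest of the 10 genes. Id3, a helix-loop-helix inhibitor induced by bone morphogenetic proteins, was at 1154, 807 and 633 in KO libraries, 828, 789 and 356 in Het libraries, and 674, 914 and 785 in WT libraries. Its highest value was in KO replicate 1 and its lowest in Het replicate 3, and the genotypes overlapped.

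Aldh1l1 and Slc1a2, which mark astrocytes by metabolism and glutamate uptake, varied most among the KO libraries. Aldh1l1, a folate enzyme used as a pan-astrocyte marker, was at 1617, 1977 and 1003.5 in KO libraries, 1687, 1376 and 1374 in Het libraries, and 1489, 1427 and 1584 in WT libraries. KO thus held both the highest and the lowest library of the 9. Slc1a2, the glutamate transporter GLT-1, was at 4067, 5117 and 1524 in KO libraries, 2172, 2817 and 2371 in Het libraries, and 2852, 3682 and 3283 in WT libraries. All 3 Het libraries lay below all 3 WT libraries, while KO spanned the whole range. KO replicate 3, lowest for Aldh1l1 and Slc1a2, was also lowest for a list of 15 radial glia genes. That list summed to 66694 there, against 73543 to 98427 in the other libraries. Slc1a2 RNA is also known from developing neurons, and the genes nearest to it over the libraries are given further on.

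Gja1 had the widest spread. It encodes connexin 43, the main gap junction protein of astrocytes, and lies on chromosome 10 from 56377330 to 56402513 on the plus strand (GRCm38). Its normalized counts were 5495, 5068 and 2562 in KO libraries, 4423, 2710 and 247 in Het libraries, and 3096, 3507 and 3350.1 in WT libraries. Het replicate 3 was 15.3-fold below the mean of the other 8 libraries, and the highest library was 22.2 times the lowest. Gjb6, the other connexin of astrocytes (connexin 30), was at 669, 423 and 266 in KO libraries, 418, 169 and 2.58 in Het libraries, and 278, 314 and 345 in WT libraries, with the same library lowest. Col1a1, a collagen of meningeal fibroblasts, was at 87.2 in Het replicate 3 against 2206 to 5328 in the other 8. The part of meningeal tissue in these Gja1 values was not tested.

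The secreted lipid carriers behaved differently from each other. Apoe was at 4115, 4099.6 and 2894 in KO libraries, 3602, 2824 and 1489 in Het libraries, and 3018, 3248 and 3521 in WT libraries. Het replicate 3 was again lowest, 2.29-fold below the mean of the other 8, and Csf1r, a receptor of microglia and macrophages, was at 370.2 there against 652 to 1093. Clu, the extracellular chaperone clusterin, was at 1008, 1384 and 963 in KO libraries, 859, 1416 and 951 in Het libraries, and 987, 1564 and 1055 in WT libraries. In each genotype replicate 2 was highest, and these 3 libraries also held the 3 highest values of Ttr, at 624 in KO, 11029 in Het and 3156 in WT. Of the other choroid plexus genes listed, Folr1, Kcne2 and Sostdc1 were also highest in these 3 libraries. Clic6, Otx2, Aqp1, Kl, Prlr and Enpp2 were not, and Otx2 was at 30.4 in KO replicate 2 against 44.3 in KO replicate 1. The 6 ependymal genes summed to 409 in KO, 461 in Het and 438 in WT in these libraries, against 171 to 349 in the others. The part of choroid plexus and ependyma in the Clu values was not tested.

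The 3 genes of more mature astrocytes were low and scattered. Gfap, the intermediate filament of astrocytes, was at 211, 429 and 302 in KO libraries, 65.7, 322 and 304 in Het libraries, and 215, 517 and 338 in WT libraries. Aqp4, the water channel of astrocyte endfeet, was at 71.2, 179 and 107 in KO libraries, 72.3, 77.1 and 148 in Het libraries, and 106, 100.1 and 156 in WT libraries. S100b, a calcium-binding protein, was at 40.4, 35.9 and 12.8 in KO libraries, 29.9, 14.7 and 12.9 in Het libraries, and 9.60, 21.8 and 33.5 in WT libraries. Genotypes overlapped for all 3 genes, and Gfap in Het replicate 1 stood far below every other library.

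**Figure D2:**
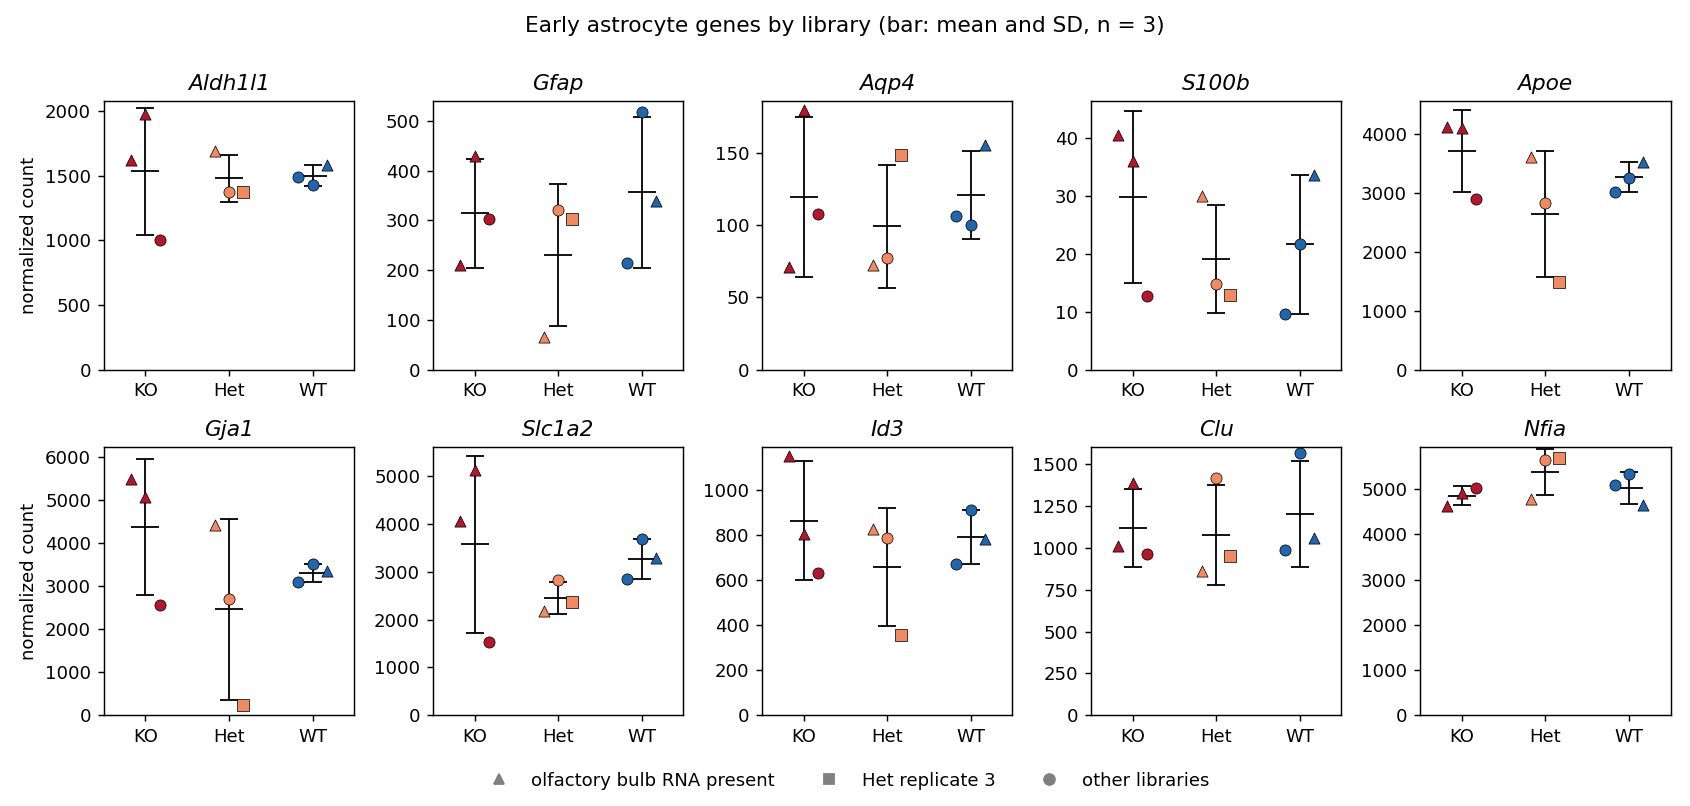
Normalized counts of each gene (linear axes from 0) in KO, Het and WT, with 1 point a library and a bar for mean and SD (n = 3). Triangles are the 4 libraries with olfactory bulb RNA and the square is Het replicate 3. Gja1 in that library was at 247 against 2562 to 5495 in the other 8.

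The comparison of KO with WT asked which of these genes differ when both copies of Cyfip2 are mutant, and 0 of 10 passed. Of the 10, 4 had a positive log2 fold change and 6 a negative one, with a median of -0.03, beside 48.4% positive and a median of -0.00 over all genes tested. limma called 0 of the 15069 genes at an adjusted p under 0.05 (0%), and 178 genes (1.18%) had an unadjusted p under 0.05, of which none was among the 10. No gene of the 10 had KO and WT libraries that did not overlap, against 6.46% of all genes. The largest positive values were 0.45 ± 0.58 for S100b (29.7 ± 14.8 in KO and 21.6 ± 11.97 in WT) and 0.32 ± 0.90 for Gja1 (4375 ± 1585 in KO and 3318 ± 208 in WT; log2 fold change ± SE, means ± SD, n = 3). S100b was at -0.02 ± 0.58 without WT replicate 1, 0.95 ± 0.56 without KO replicate 3, 0.04 ± 0.35 with an olfactory bulb score as a covariate and -0.41 ± 0.53 with sex. The 95% interval of Gja1 ran from -1.73 to 2.38, a fold of 0.301 to 5.21. The spread behind it is shared over the 3 genotypes and so includes Het replicate 3. In a fit to KO and WT alone the SE of Gja1 was 0.27 at the same log2 fold change. With a meningeal score as a covariate the log2 fold change itself moved, to 0.02 ± 0.15. Gfap was at 314 ± 109 in KO and 357 ± 152 in WT, with a log2 fold change of -0.15 ± 0.60, and Aqp4 at 119 ± 55.1 in KO and 121 ± 30.4 in WT. In bulk tissue, fewer astrocytes and less RNA per astrocyte cannot be told apart.

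The signs of the KO to WT values changed with the libraries used. Without KO replicate 3, 7 of 10 genes were positive with a median of 0.28, and Slc1a2 was at 0.49 ± 0.15. Without WT replicate 2, 7 of 10 were positive too (median 0.14), and without WT replicate 1 it was 2 of 10 (median -0.03). With sex as a covariate 3 of 10 were positive, with a median of -0.30, and with the olfactory bulb score 3 of 10, with a median of -0.07. Among the libraries with olfactory bulb RNA (2 KO and 1 WT), 8 of 10 genes were higher in KO, with a median of 0.18. In that set Ddx3y was listed at 0 in both KO libraries and at 1521 in the WT library. A list of 12 striatal genes summed to 7843 and 10427 there in KO and to 8246 in WT, with none at 0. Its members did not go 1 way. Its transcription factor Isl1 was at 209 and 334 in KO and 16.7 in WT. Ppp1r1b was at 949 and 907 in KO and 1867 in WT, Drd1 at 278 and 379 against 514, and Rgs9 at 542 and 717 against 916. The part of sex and striatal tissue was not tested. Among those without it (1 KO and 2 WT), 1 of 10 was higher, with a median of -0.24. In a fit to the 5 libraries without it, Slc1a2 was at -1.09 ± 0.19 and Aldh1l1 at -0.54 ± 0.09, with adjusted p = 0.807 as the smallest of the 10 (limma), where the lone KO library is assumed to vary like the others. The direction of Slc1a2 and Aldh1l1 in KO thus differed between these sets of libraries.

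The comparison of Het with WT asked the same of animals with 1 mutant copy, and 0 of 10 passed. Of the 10, 9 had a negative log2 fold change and 1, Nfia, a positive one, with a median of -0.34 against -0.01 over all genes. limma called 0 genes in all (0%), and 242 (1.61%) had an unadjusted p under 0.05, none of them among the 10. Slc1a2 was the 1 gene whose Het and WT libraries did not overlap, which 6.67% of all genes did. It averaged 2453 ± 330.3 in Het and 3272 ± 415 in WT (SD, n = 3 each), a log2 fold change of -0.42 ± 0.38 with a 95% interval from -1.28 to 0.45. The largest values were -1.20 ± 0.90 for Gja1 and -0.85 ± 0.60 for Gfap, and each rested on 1 library. Without Het replicate 3, Gja1 was at 0.06 ± 0.32, Apoe at -0.03 ± 0.17 against -0.40 ± 0.29 with it, and Id3 at 0.04 ± 0.23 against -0.35 ± 0.33. The split of the 10 was then 5 positive and 5 negative, with a median of -0.00. Without Het replicate 1, Gfap was at -0.10 ± 0.39. Within libraries with olfactory bulb RNA (1 Het, with Ddx3y at 0, and 1 WT, with Ddx3y at 1521) 5 of 10 were higher in Het, and within those without it (2 Het and 2 WT) 2 of 10.

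KO and Het were compared as well, and 0 of 10 genes passed. Of the 10, 9 were positive and Nfia was the 1 negative, with a median of 0.41 against 0.00 over all genes. limma called 0 genes (0%), and 541 (3.59%) had an unadjusted p under 0.05, again none of the 10. No gene of the 10 had KO and Het libraries that did not overlap, against 7.82% of all genes. Gja1 was at 1.53 ± 0.90 (4375 ± 1585 in KO and 2460.2 ± 2099 in Het) and Apoe at 0.56 ± 0.29 (3703 ± 701 in KO and 2638 ± 1069 in Het), and Apoe had an adjusted p of 0.942 (limma). Without Het replicate 3 they were at 0.26 ± 0.32 and 0.20 ± 0.17, and the median of the 10 was 0.23. Among libraries without olfactory bulb RNA (1 KO and 2 Het) 4 of 10 were higher in KO, against 9 of 10 among those with it (2 KO and 1 Het). The 3 comparisons share libraries, so their signs are not independent of each other.

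**Figure D3:**
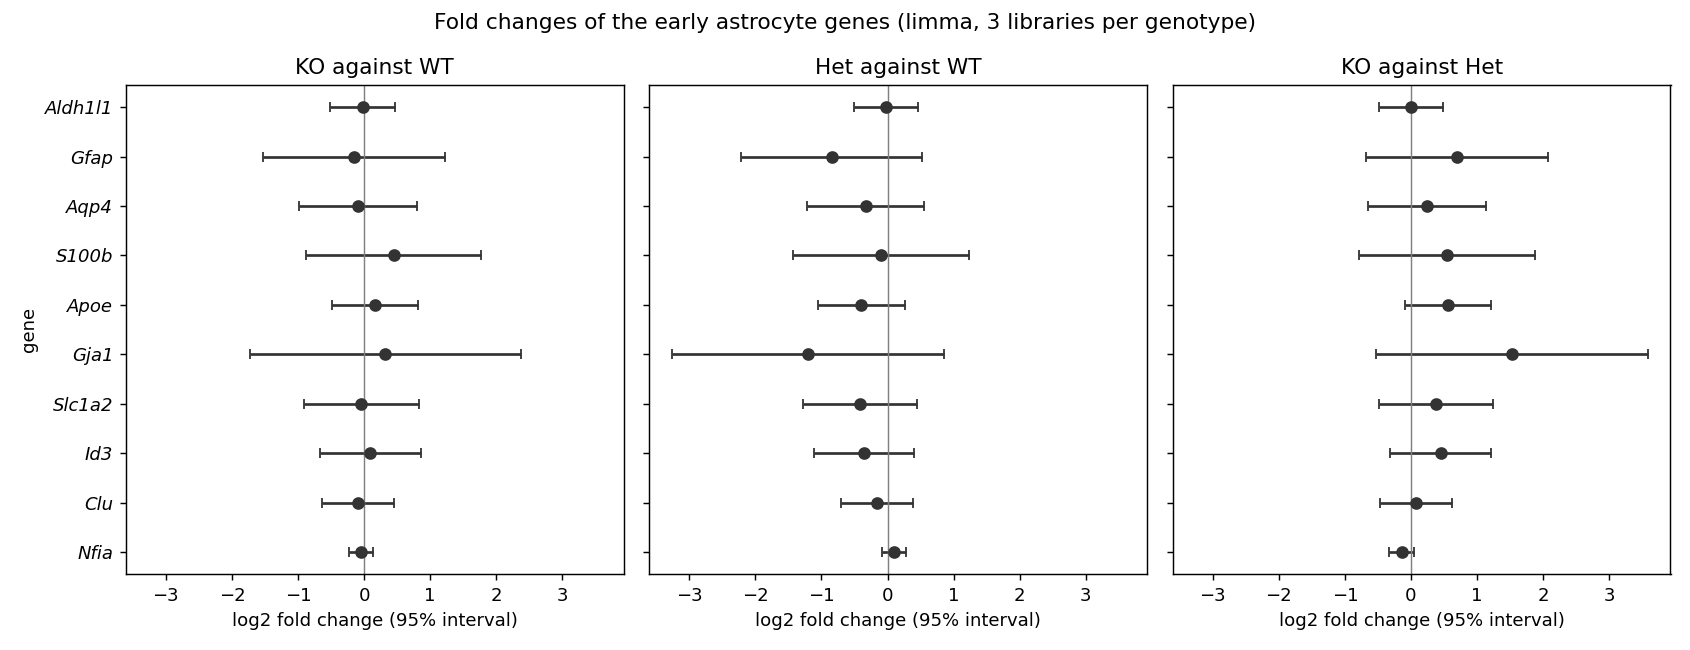
Log2 fold changes with 95% intervals of the 10 genes (limma, 3 libraries a genotype) for KO against WT, Het against WT and KO against Het. Every interval spans 0, and Nfia, from -0.23 to 0.14 for KO against WT, has the narrowest and Gja1, from -1.73 to 2.38, the widest.

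As a group these genes varied more between libraries of 1 genotype than most genes did, and so did other cell type lists. The median SE of the log2 fold changes was 0.357 for these 10 genes, against 0.122 for all genes tested. It was 0.252 for a wider astrocyte list given below, 0.247 for the radial glia list and 1.20 for the meningeal list. For a list of cortical neuron genes it was 0.129. The percentiles that follow are over genes of all levels. The within-genotype SD of Gja1 on the log2 scale was 1.33, at percentile 98.2 of the genes tested, and Gfap (95.8), S100b (94.9), Slc1a2 (89.8) and Aqp4 (89.3) also lay high. Of the 10, 9 lay above percentile 70, Nfia at 33.9 being the exception, and the median SD of all genes was 0.149. Without Het replicate 3 the SD of Gja1 was 0.45 (percentile 88.9) and that of Apoe lay at percentile 67.3, against 83.4 with it.

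Libraries with olfactory bulb RNA were high for 3 of the genes. Aldh1l1 ran from 1584 to 1977 in these 4 libraries, against 1003.5 to 1489 in the other 5. Apoe ran from 3521 to 4115 in them, against 1489 to 3248 in the others. S100b ran from 29.9 to 40.4 in them, against 9.60 to 21.8. None of these ranges overlapped, a pattern that 4.35% of all genes showed. Nfia lay the other way, from 4622.5 to 4925 in the 4 libraries against 5016 to 5679 in the others, as did 2.59% of all genes. Frzb, a Wnt antagonist of olfactory ensheathing glia, was at 270 to 457 in the same 4 libraries, against 24.5 to 105.0 in the others. The 8 ensheathing glia genes summed to 3270 to 4781 with olfactory bulb RNA, against 2510 to 4308 without it, and Foxd3, another of them, was listed at 0 in 4 of the 5 libraries without it. The same 4 libraries differed in other ways too. The meningeal list summed to 19025 to 35394 in them, against 734 to 18989 in the others. A list of oligodendrocyte lineage genes summed to 6672 to 7518 in them, against 5128 to 6140. Ddx3y was at 0 in all of the 4 but WT replicate 3, and in none of the other 5. The part of olfactory tissue, other tissue or sex in these values was not tested.

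Het replicate 3 was the lowest of the 9 libraries for Apoe, Gja1 and Id3, as it was for 18.8% of all genes. It was more than 2-fold below the next library for 3.42% of all genes, Gja1 among them. Id3 was 2.31-fold below the mean of the other 8 there. The microglia and macrophage list of 14 genes summed to 2219 in this library, against 4118 to 6736 in the others, and Pecam1, an endothelial adhesion molecule, was at 649 against 992 to 1524. The remaining 7 genes were not lowest there, and Nfia was highest.

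**Figure D4:**
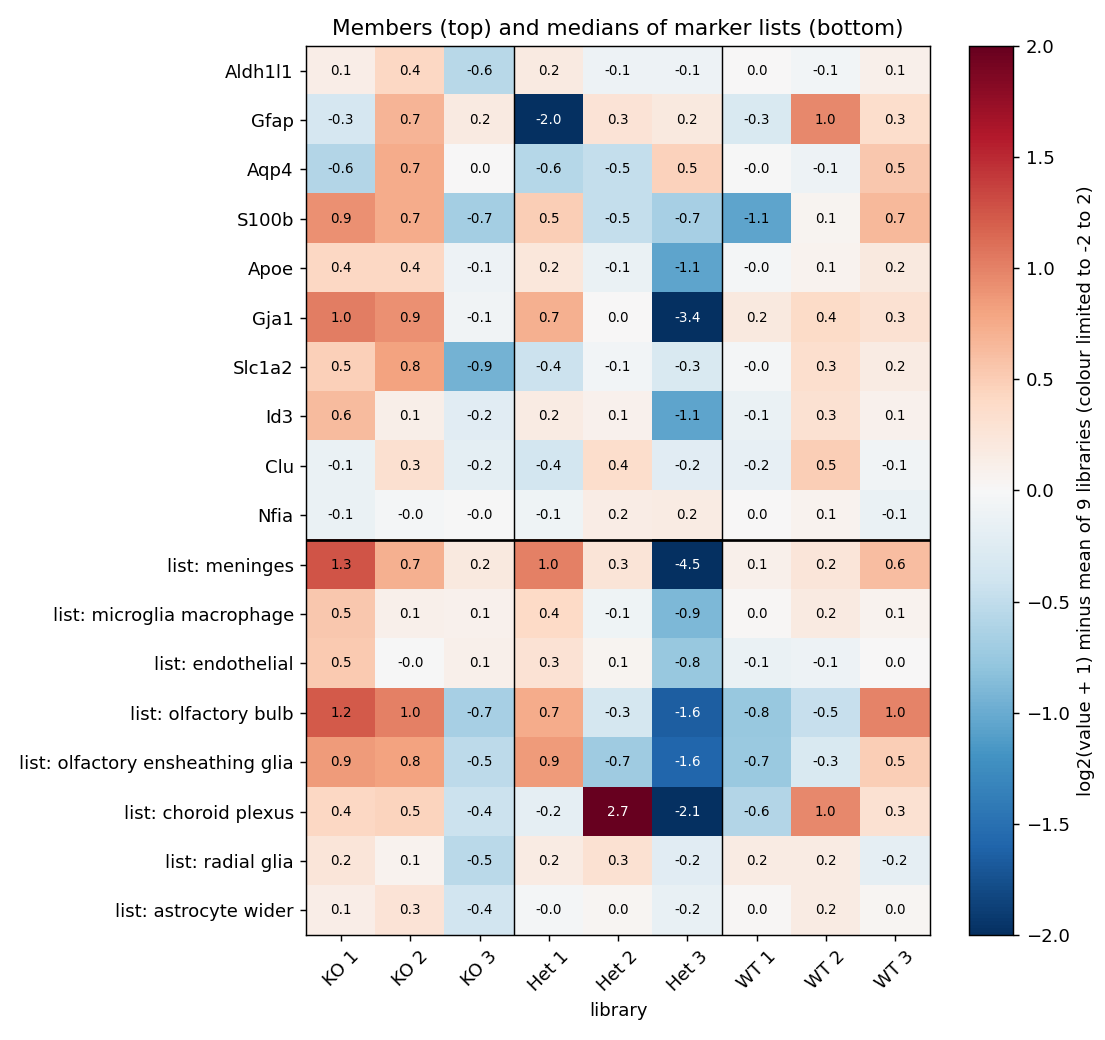
Log2(value + 1) minus the mean of the 9 libraries, for the 10 genes (top) and for the medians of marker lists (bottom), in KO, Het and WT libraries. Het replicate 3 is low for Gja1, Apoe and Id3 and for the meningeal list, and the 4 libraries with olfactory bulb RNA are high for S100b and the olfactory bulb list.

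The 10 genes did not move as 1 block. Over the 45 pairs, Pearson r of log2 values over the 9 libraries was positive in 31, with a median of 0.24 and a range from -0.76 (Apoe and Nfia) to 0.98 (Apoe and Gja1). These r are descriptions, since the points share genotype, tissue content and scaling. Without Het replicate 3, Apoe and Gja1 stayed close at 0.96, while Gja1 and Id3 were at 0.74 against 0.92 with it, and S100b and Apoe at 0.91 against 0.68. Each gene was then set against 12390 other genes with a mean of at least 100, and the 2 nearest were named. Nearest to Gja1 were Ogn, a proteoglycan of the meningeal list (r = 0.99 without Het replicate 3), and Slc2a12, a glucose transporter (0.98). Nearest to Slc1a2 were Dner, a neuronal Notch ligand, and Syn2, a synaptic vesicle protein (0.98 each over 9 libraries). Of genes known from radial glia, Slc1a3 was at 0.87 with Slc1a2, Fabp7 at 0.74 and Pax6 at 0.20. Aldh1l1 and Slc1a2 were at 0.79. The cells behind the Slc1a2 values were not tested.

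The other genes had unlike neighbours. Apoe lay nearest to Adra2a, an adrenergic receptor, and Copz2, a coat protein subunit (0.99 each). Id3 lay nearest to Nxn, a redox protein (0.99), and Ccdc3 (0.98). Clu was nearest to Thrsp (0.99) and Entpd2, an ectonucleotidase (0.91), and S100b to Fam198a (0.97) and Inka2 (0.96). Gfap was nearest to Kcnk1, a potassium channel (0.97), and Chrm3, a muscarinic receptor (0.96), and Aqp4 to Invs and Amph (0.96 each). Aldh1l1 was nearest to Stoml2, a mitochondrial membrane protein (0.97), and Pxylp1 (0.96), and Nfia to Gne, a sialic acid enzyme, and Gtpbp1 (0.96 each). Each is the highest r among 12390 candidates over 9 points, and nothing on shared control is read from it. Frzb and S100b were at 0.93 (0.96 without Het replicate 3), and Ttr and Clu at 0.90 with and without it.

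**Figure D5:**
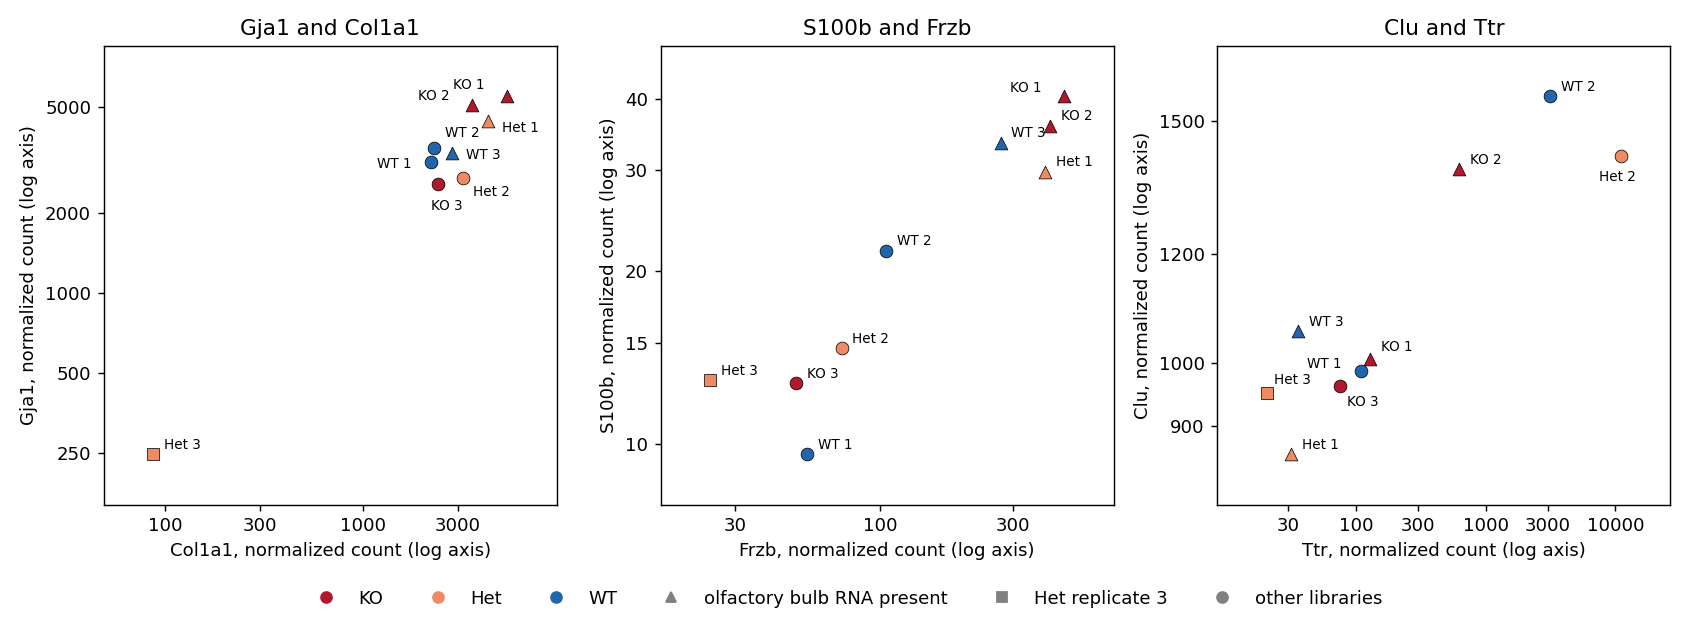
Normalized counts (log axes) of Gja1 against Col1a1, S100b against Frzb and Clu against Ttr in the 9 libraries, coloured by genotype (KO, Het, WT), with triangles for libraries with olfactory bulb RNA and a square for Het replicate 3. Gja1 and Col1a1 are both lowest in Het replicate 3, at 247 and 87.2, and the 4 highest S100b values are in the libraries with olfactory bulb RNA.

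A wider list of 49 astrocyte genes, 48 of them tested, gave the same count. In KO against WT 0 of 48 passed, with 19 positive, 29 negative and a median of -0.06, beside 48.4% positive among all genes. In Het against WT 0 passed, with 12 positive, 36 negative and a median of -0.12, beside 46.2% positive among all genes. In KO against Het 0 passed, with 29 positive, 19 negative and a median of 0.08, beside 50.4% positive among all genes. By unadjusted p, 1 gene was under 0.05 in 1 comparison: Ptprz1, a radial glial phosphatase, in KO against Het. That is 1 of 48, where 3.59% of all genes had such a p. Ptprz1 averaged 21468 ± 355 in KO and 24836 ± 1702 in Het, a log2 fold change of -0.21 ± 0.08. Smallest in p for KO against WT were Gpc5 (0.80 ± 0.63), Glul, which makes glutamine from glutamate (0.09 ± 0.12), and Sparcl1 (0.08 ± 0.12) on the positive side. On the negative side they were Hopx (-0.52 ± 0.27), Dio2, which activates thyroid hormone (-0.50 ± 0.26), and Mt3, a metallothionein (-0.31 ± 0.18). Hopx was at 344, 392 and 277 in KO libraries, 250.6, 548 and 430.3 in Het libraries, and 429, 552 and 466 in WT libraries, so KO lay below WT without overlap. It was the 1 gene of 48 to do so in either direction, against 6.46% of all genes. For Het against WT they were Ptprz1 (0.14 ± 0.08), Nfib (0.06 ± 0.11) and Grin2c (0.17 ± 0.37), and Id1 (-0.42 ± 0.22), Agt (-1.84 ± 1.01) and Gjb6 (-2.30 ± 1.46). For KO against Het they were Gjb6 (2.74 ± 1.46), Itih3 (1.00 ± 0.59) and Ppp1r3c (0.53 ± 0.32), and Ptprz1, Nfib (-0.14 ± 0.11) and Bmpr1b (-0.24 ± 0.21). Id1, Agt and Gjb6 were each lowest in Het replicate 3, at 270, 0 and 2.58 in that order. The other libraries held 457 to 571, 4.84 to 29.9 and 169 to 669, and Agt averaged only 12.9.

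The ligands, receptors and effectors that switch on astrocyte formation were listed as well, 43 genes of which 42 were tested. In KO against WT 0 passed, with 24 positive and 18 negative (median 0.01), and in Het against WT 0 passed, with 25 positive and 17 negative (median 0.03). In KO against Het 0 passed, with 18 positive and 24 negative (median -0.01). Among ligands, Bmp2 averaged 48.6 ± 3.87 in KO, 33.1 ± 2.53 in Het and 36.0 ± 10.1 in WT. Bmp4 was at 136, 166 and 129.96 in KO libraries, 112, 96.8 and 3.87 in Het libraries, and 79.5, 95.6 and 147 in WT libraries, with Het replicate 3 far lowest. KO lay above Het without overlap for both ligands, at log2 fold changes of 0.54 ± 0.25 for Bmp2 and 1.93 ± 1.03 for Bmp4. In that comparison 5 of 42 listed genes did not overlap, against 7.82% of all genes, and Smad4 and Rbpj were among them with KO below Het. Among receptors, Erbb3, a neuregulin receptor also known from ensheathing glia, was at 233, 153 and 35.0 in KO libraries, 212, 28.3 and 22.6 in Het libraries, and 15.5, 19.04 and 80.0 in WT libraries. Its 4 highest values were in the libraries with olfactory bulb RNA, and its KO to WT log2 fold change was 1.87 ± 1.02.

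Among effectors, Smad4, which carries bone morphogenetic protein signals to the nucleus, averaged 3757 ± 20.5 in KO, 4173 ± 102 in Het and 3836 ± 229 in WT. It had an unadjusted p under 0.05 in Het against WT (0.12 ± 0.05) and in KO against Het (-0.15 ± 0.05), without passing the adjusted threshold. It was 1 of 42 in each, where 1.61% of all genes had such a p in Het against WT and 3.59% in KO against Het. Stat3 averaged 1119 ± 303 in KO and 915 ± 152 in WT, a log2 fold change of 0.26 ± 0.22. Also smallest in p for KO against WT were Dll1, a Notch ligand (-0.15 ± 0.10), Bmpr1a (-0.09 ± 0.07) and Id2 (-0.17 ± 0.14). For Het against WT they included Lifr (0.14 ± 0.11), Bmp4 (-1.47 ± 1.03) and Hes1 (-0.26 ± 0.35). For KO against Het they included Erbb4 (0.21 ± 0.11) and Rbpj (-0.15 ± 0.09). Hes1, like Bmp4, was lowest in Het replicate 3, at 125 against 169 to 308 in the other libraries.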

How the data were processed

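RNA libraries were prepared with a TruSeq Stranded mRNA kit, per the labels' protocols. The deposited table gives a normalized signal for each gene and library. The table's title calls these DESeq counts, and its values, which are not whole and have near-equal library totals, are those of gene counts over a library's size factor. Tools and builds listed in the submitters' processing notes, without role or order, are GRCm38, DESeq2 1.19.11, Salmon 0.11.2 and R 3.6.0.

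Low values (under 6) fell within 0.1 of whole reads in 60.7% to 78.1% of cases, so reads could not be recovered and the fallback planned for normalized values was used in place of a count test. limma 3.58.1 (R 4.3.3; lmFit, eBayes with trend) was fitted to log2(value + 1) of 15069 genes with a mean of at least 10, with 1 mean per genotype over 9 libraries. It was also run on simulated data with noise drawn independently for each gene. These lacked the shared differences in tissue and sex of the real libraries, so that run cannot show how the fit handles them. P-values are two-sided with Benjamini-Hochberg adjustment across the 15069 genes (threshold 0.05). This scale understates changes of low genes. Symbols, loci and exon lengths came from GENCODE M21, where 18783 of 18820 IDs had a symbol, and promoters from RefSeq. Figures were drawn with matplotlib 3.10.9.

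The members, gene lists and named-gene rule were chosen with earlier results of these data known. The rule takes the 10 genes, Cyfip2, the 3 genes of the wider astrocyte and signal lists with the smallest p in each direction, and the 2 genes nearest to each member. Defining markers are given where a result touches them. Foxd3, Isl1, Ppp1r1b, Drd1, Rgs9, Slc1a3 and Fabp7 were chosen after their values were seen. So were the members of the olfactory bulb, ensheathing glia and choroid plexus lists named beside Cdhr1, Frzb and Ttr. The result of 1 gene that the rule takes is not reported here. Deviations of same-numbered KO and Het libraries correlated at 0.45, 0.10 and 0.47. KO and Het replicates 1 both carried olfactory bulb RNA and had Ddx3y at 0. KO and Het replicates 3 both lacked that RNA and had Ddx3y. Pairing and this shared content cannot be told apart here. Alternatives were other pseudocounts, filters, scalings, covariates, a replicate block, and fits without single libraries or those with olfactory bulb RNA.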

Additional observations from a re-analysis of the deposited data

How the results depend on the processing

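Genes called in all were 0 for each of the 3 comparisons with the pseudocounts, filters, scalings, covariates and replicate block tried, and the replicate block changed no call (0 genes called in each comparison). Fits to the 2 genotypes compared alone called 1 gene for Het against WT (Gm3650) and 1 for KO against Het (Lenep). Fits without 1 library called 0 to 1 genes: 1 for KO against WT without KO replicate 3 (Gm3650), 1 for Het against WT without Het replicate 1 (Gm14288) or without WT replicate 1 (Lenep), and 1 for KO against Het without Het replicate 1 (Gm14288). None is an astrocyte gene of the lists, and the cause was not tested. Same-numbered libraries correlated at -0.01, 0.06 and -0.03 for KO and WT and at -0.07, 0.25 and 0.03 for Het and WT, so there the numbers are not shown to pair libraries.

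No value of the 10 genes passed the threshold under any alternative run. Of 567 such values, 504 kept their direction and 63 changed sign, 31 of them for KO against WT, 15 for Het against WT and 17 for KO against Het. Without libraries with olfactory bulb RNA 11 of 30 signs changed, with an olfactory bulb score as a covariate 9, with sex 8 and with a meningeal score 4. Pseudocounts of 0.5 and 5 changed none. With the meningeal score, Gja1 was at 0.02 ± 0.15 for KO against WT and -0.16 ± 0.16 for Het against WT. S100b, with a mean of 23.5, is left out by a filter at 50.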

Other observations

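Libraries ranked differently across the 10 genes. KO replicate 1 was highest for 4 of them (S100b, Apoe, Gja1 and Id3) and lowest for 2 (Aqp4 and Nfia). KO replicate 2 was highest for 3 and KO replicate 3 lowest for 2, Het replicate 3 lowest for 3 and highest for 1, and WT replicate 2 highest for 2.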
